A study of Mus musculus with 8 samples.

Results

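The 10 genes described here encode the receptors and ligands of 2 vascular signalling systems, vascular endothelial growth factor (VEGF) and the angiopoietins. They are Kdr, Flt1, Flt4, Nrp1, Nrp2, Tek, Tie1, Angpt1, Angpt2 and Vegfa. The members were fixed by name, and every probe whose RefSeq accession maps to one of these symbols was taken. This gave 13 probes of 55681 on the array. All 13 were well above background on all 8 arrays and none was saturated, so all 10 genes were among the 14515 genes tested. The measurement was Cy3 signal on Agilent 1-colour arrays, from total RNA of mouse C57BL/6 embryonic stem cells differentiated in culture into hemogenic endothelium, the endothelial stage that gives rise to blood cells. All cells carried Runx1, a transcription factor needed for that step, in a doxycycline-inducible form (iRUNX1, Tet-on). In the labels the uninduced group is "control" and the induced group, given doxycycline overnight at 0.3 µl/ml, is "Runx1 expression". There were 3 biological replicates per group and 1 further technical repeat array per group, and the labels do not say which RNA was hybridised again. Both groups were made from embryoid bodies of 3.25 days by 2 successive selections of cells bearing Flk-1, which is the product of Kdr, with VEGF at 5 µg/L in the medium between the selections, and both then spent 2 days in hemogenic endothelium culture. The level of Kdr therefore belongs to cells chosen for its product before induction. The sources used here do not say whether the line is 1 clone. A doxycycline control that lacks the inducible gene was not analysed here.

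VEGF-A, the product of Vegfa, signals to endothelial cells mainly through the tyrosine kinase receptor encoded by Kdr. The related receptor encoded by Flt1 binds VEGF-A tightly and signals weakly, Flt4 encodes the receptor for VEGF-C and VEGF-D that is known from lymphatic vessels, and the neuropilins encoded by Nrp1 and Nrp2 are co-receptors that also bind semaphorins. Tek encodes Tie2, the receptor for the angiopoietins. Angpt1 encodes its activating ligand, Angpt2 a ligand that can block or activate it depending on context, and Tie1 a related receptor that modulates Tie2. Flk-1 marks the mesoderm from which blood and endothelium arise, and Tie2 is carried by endothelium and by early blood cells.

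Each value is a log2 signal minus the 75th percentile of its array, so that 0 is that percentile, and a change is induced minus uninduced. A level of 1 probe is not comparable with that of another. The percentile itself was 338 to 699 signal units on the uninduced replicate arrays and 543 to 973 on the induced ones, and 55.6% to 70.4% of spots were well above background. Against the 4 spike-in probes used as an outside reference, the induced array's percentile exceeded the uninduced one's by 1.21, 0.85 and 2.04 log2 units in replicates 1, 2 and 3 (mean 1.37 ± 0.61, SD, n = 3) and by -0.02 between the technical repeats. Spike-in scaling thus raised the change of every gene with a value on all 6 arrays by that mean, the median of all genes went from 0.09 to 1.45, and 7 of the 10 genes that were below 0 on the percentile scale became 1 of 10. Relative to the median of all genes the changes were almost the same on both scales, -1.22 for Tek and 2.34 for Angpt1 on each. The induced technical repeat stood apart: its root mean square difference from the nearest array was 0.675 log2 units, against 0.422 to 0.580 for the other 7 arrays. Of Runx1 itself 1 probe was kept, which read -4.57 ± 0.25 without and -5.60 ± 0.60 with induction (SD, n = 3; limma adjusted p 0.126, and 0.0214 under the replicate block). The sources used here do not say whether it lies in the construct, so it checks no label.

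**Figure D1:**
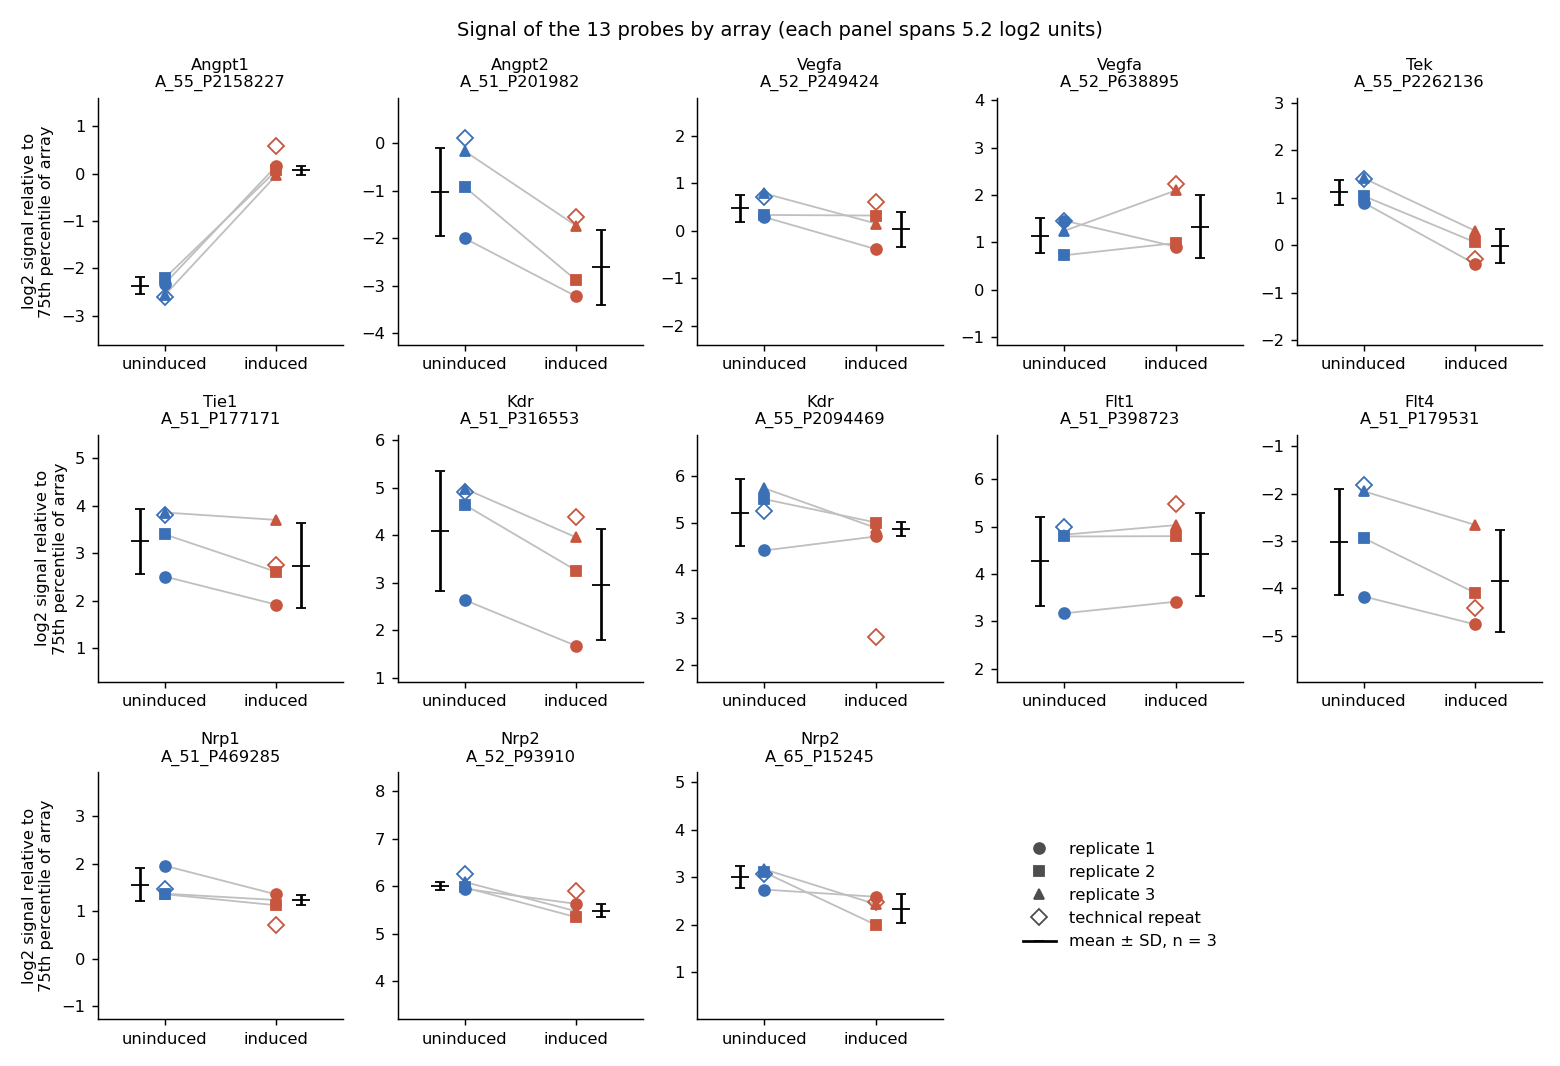
Log2 signal relative to the array's 75th percentile (vertical axis) of the 13 probes, without and with induction. Filled points are the 3 replicates, joined by number, open diamonds are the technical repeat arrays, and the bars beside them give the mean and SD (n = 3). Angpt1 was higher and Tek lower on every induced array on this scale. Spike-in scaling turned the mean change of Tek to 0.24, with only the pair of replicate 3 above 0. In Kdr, Flt1, Flt4, Tie1, Angpt2, Vegfa and, without induction, Nrp1, the replicates of a group lay as far apart as the groups or farther.

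Of the 10 genes, Angpt1 rose and Tek fell in limma at an adjusted p under 0.05, the latter on the percentile scale only and not with spike-in scaling (0.24). Over all genes 6.29% passed, 4.13% higher and 2.16% lower. The members' count of 2 in 10 was 1 in each direction, and their median change was -0.43 against 0.09 over all genes tested (0.94 against 1.45 with spike-in scaling). With the replicate number as a block, 4 of the 10 passed against 16.2% of all genes: Angpt1 was higher (9.36% of all genes were), and Tek, Angpt2 and Flt4 were lower (6.8% of all genes), with Tek at 0.24 and Flt4 at 0.55 under spike-in scaling. The groups did not overlap in 4 of the 10 genes, against 28.3% of all genes. They were Angpt1 in the higher direction (19.6% of all genes) and Tek, Nrp1 and Nrp2 in the lower one (8.72%). By pairs of the same replicate number, 6 of the 10 genes were lower in all 3 pairs, against 21.7% of all genes, and 2 were higher in all 3 pairs, against 37.7%. The 6 were Tek, Tie1, Flt4, Nrp1, Nrp2 and Angpt2, of which spike-in scaling turned the mean change of all but Angpt2, and the 2 were Angpt1 and Flt1. With spike-in scaling Angpt1 alone of the 10 passed. For the others limma's adjusted p on that scale ran from 0.141 (Vegfa) to 0.795 (Angpt2), so no turned sign there is a rise beyond its spread. The p-values measure the spread between these arrays, and that they are separate cultures rests on the labels. In bulk RNA, fewer cells of a type and less RNA per cell cannot be told apart.

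**Figure D2:**
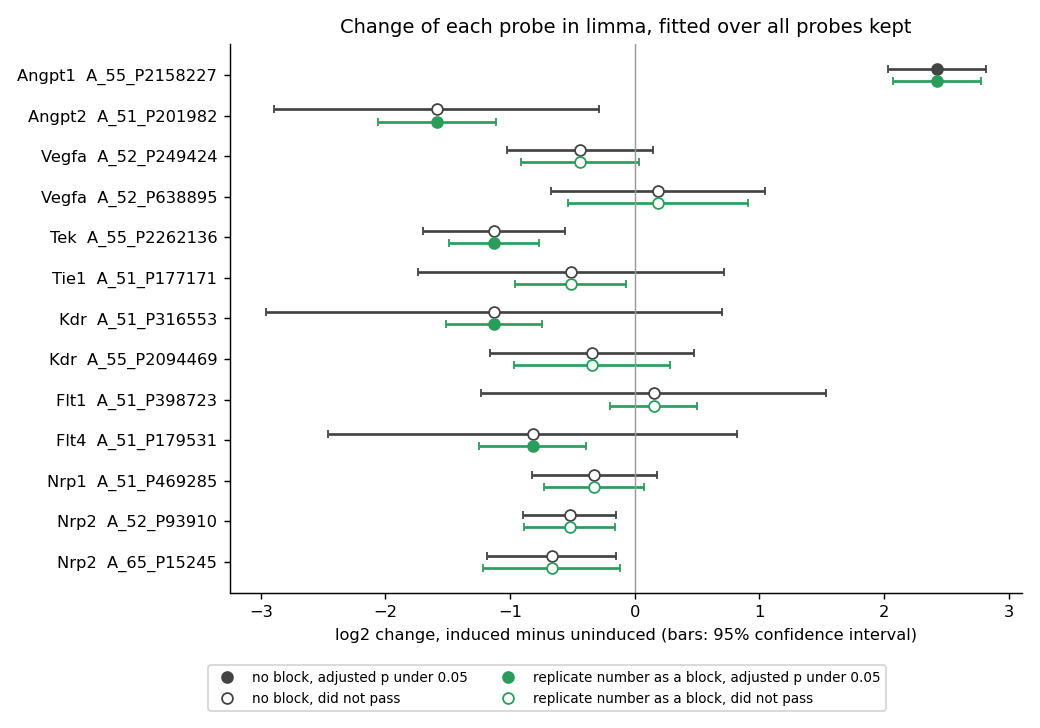
Log2 change (horizontal axis, induced minus uninduced) of each of the 13 probes with its 95% confidence interval, from limma fitted over all 32857 kept probes, without and with a block for the replicate number. Filled points passed an adjusted p of 0.05: Angpt1 in both fits, and Angpt2, Tek, the 10-spot Kdr probe and Flt4 with the block. On the spike-in scale the mean changes of Tek, Flt4 and that Kdr probe were above 0 and did not pass, with pair 2 of each below 0.

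Among the ligands, Angpt1, the activator of Tie2, rose strongly, while Angpt2, the other Tie2 ligand measured, read lower and Vegfa showed no change of either sign beyond its spread. Angpt1 (probe A_55_P2158227) read -2.32, -2.20 and -2.56 in uninduced replicates 1, 2 and 3, and 0.16, 0.06 and -0.03 in induced replicates 1, 2 and 3. All induced arrays lay above all uninduced ones by more than 2 log2 units, and the arrays within a group lay close together. In signal units this was 140.01, 82.1 and 57.3 without and 1089.7, 622 and 531 with doxycycline. The change was 2.43 (SE 0.16, 95% confidence interval 2.06 to 2.80), or 5.38-fold (4.16 to 6.96), with an adjusted p of 0.00136 in limma. The 3 pairs gave 2.48, 2.27 and 2.53, and the technical repeat arrays read -2.60 and 0.59, a difference of 3.19. It was the only one of the 10 genes past the threshold under each setting run on the scanner files, at 1.81 (normexp background) to 3.79 (spike-in scaling). With 1 array left out in turn the change was 2.33 to 2.51, with limma's adjusted p between 0.00559 and 0.0128.

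Angpt2 (A_51_P201982) is made and stored by endothelial cells. It read -2.00, -0.92 and -0.17 on the uninduced arrays and -3.23, -2.89 and -1.74 on the induced ones. The groups overlapped, because uninduced replicate 1 lay below induced replicate 3, yet within each replicate number the induced array was the lower one. The pair differences were -1.23, -1.97 and -1.57, and that of the technical repeats was -1.66. Without a block the change of -1.59 (SE 0.56, 95% confidence interval -2.92 to -0.26) did not pass, with an adjusted p of 0.166 in limma. Under the replicate block the SE was 0.18 and the adjusted p 0.00623, and with spike-in scaling the change was -0.22. With the row of the slide as a block, an alternative added after seeing the data, the adjusted p was 0.0388 in limma. Its level thus differed between replicates by about as much as between groups, and of the settings run it passed only in these 2 fits with a block.

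Vegfa was measured by 2 probes that name different transcripts and did not move alike. A_52_P638895 (NM_001025250), the brighter, read 1.46, 0.73 and 1.24 without and 0.91, 0.99 and 2.09 with induction. Its pair differences of -0.55, 0.26 and 0.85 differed in sign, and the change of 0.19 (SE 0.36, 95% confidence interval -0.68 to 1.05) had an adjusted p of 0.784 in limma. Leaving out induced replicate 3 turned it to -0.19 and leaving out uninduced replicate 2 to -0.02. A_52_P249424 (NM_001025257) read 0.29, 0.33 and 0.79 without and -0.39, 0.32 and 0.15 with induction. Its change was -0.44 (SE 0.25, 95% confidence interval -1.03 to 0.14; 0.92 with spike-in scaling), and limma over all probes gave an adjusted p of 0.406. For neither probe were the groups apart, and the test of a difference between the probes was not made.

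Tek, the receptor that both angiopoietins bind, fell on the percentile scale, and Tie1, its partner, read lower in each pair without passing. Tek (A_55_P2262136) read 0.90, 1.04 and 1.41 on the uninduced arrays and -0.40, 0.06 and 0.30 on the induced ones. The groups did not overlap, the pair differences of -1.30, -0.98 and -1.11 were close to each other, and the technical repeats differed by -1.69. The change was -1.13 (SE 0.24, 95% confidence interval -1.69 to -0.57), 2.19-fold lower, and limma's adjusted p was 0.0414, or 0.00660 with the block. This call lay near the threshold: it was lost under median centring (adjusted p 0.0664), without the filter on dim probes (0.0870), in the limma fit over all probes (0.0583), and with any 1 of the 6 arrays left out (-1.28 to -0.93, adjusted p 0.0564 to 0.132). With spike-in scaling the change was 0.24 and did not pass (adjusted p 0.784 in limma). That scaling adds 1.21, 0.85 and 2.04 to pairs 1, 2 and 3, so pairs 1 and 2 stayed below 0 and only pair 3 turned. The technical repeats, with -0.02 added, also stayed below 0. On the spike-in scale Tek was lower than the median of all genes by the same 1.22 log2 units as on the percentile scale, where its change relative to that median was -1.22.

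Tie1 (A_51_P177171) read 2.51, 3.40 and 3.86 without and 1.92, 2.61 and 3.70 with induction. Replicate 1 was the lowest and replicate 3 the highest in both groups, and the groups overlapped. The pair differences were -0.59, -0.79 and -0.16, and the technical repeats differed by -1.04. The change of -0.51 (SE 0.52, 95% confidence interval -1.76 to 0.73; 0.85 with spike-in scaling) had a limma adjusted p of 0.589 without and 0.0960 under the block. Whether Tek and Tie1 differ in their change was not tested.

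The promoter windows of Tek and Tie1 are shown because these genes form 1 receptor pair of which 1 passed the test. They are the 300 bases from 250 before to 50 after the RefSeq start, in GRCm38.p6, read 5′ to 3′ on the gene's strand. Tek lies at chr4:94739039-94739338 (plus strand) and Tie1 at chr4:118489800-118490099 (minus strand). Capitals mark 4 motifs, searched on both strands. The RUNX letters TGTGGT are held by 16.8% of the 32851 windows of the table, and the ETS letters AGGAAG by 35.4%. The GATA letters AGATAA are held by 11.2% of them and the SOX letters ACAATG by 12.6%. No 2 of these motifs overlapped in the members' windows.
Tek: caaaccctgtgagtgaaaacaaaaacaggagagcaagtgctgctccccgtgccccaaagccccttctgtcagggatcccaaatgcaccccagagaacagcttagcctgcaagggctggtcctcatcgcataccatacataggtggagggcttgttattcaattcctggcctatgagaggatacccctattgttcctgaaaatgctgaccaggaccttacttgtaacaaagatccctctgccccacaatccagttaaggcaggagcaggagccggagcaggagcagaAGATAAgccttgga
Tie1: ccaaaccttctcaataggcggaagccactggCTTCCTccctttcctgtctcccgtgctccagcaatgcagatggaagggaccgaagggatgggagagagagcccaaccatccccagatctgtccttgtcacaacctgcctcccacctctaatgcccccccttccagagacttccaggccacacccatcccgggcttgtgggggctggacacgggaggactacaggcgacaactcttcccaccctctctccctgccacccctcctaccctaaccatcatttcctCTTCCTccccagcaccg
The Tek window holds 1 GATA match, which begins 36 bases after the start, and the Tie1 window holds 2 ETS matches on the opposite strand. Of the 10 genes 8 have a window in the table, 9 windows in all, and none of the 9 holds the RUNX or the SOX letters. These are matches of letters, not binding sites.

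The 3 VEGF receptor tyrosine kinases did not pass in the fit without a block, and their signals differed more between replicates than between groups. Kdr, the receptor by which the cells were sorted, has 2 probes of the same transcript (NM_010612). A_55_P2094469, 1 spot and the brighter probe, stood for the gene and read 4.42, 5.50 and 5.73 without and 4.72, 5.01 and 4.90 with induction. The groups overlapped and the pair differences of 0.30, -0.49 and -0.84 differed in sign. The change was -0.34 (SE 0.34, 95% confidence interval -1.17 to 0.48; 1.02 with spike-in scaling), and limma's adjusted p was 0.582, or 0.346 with the block. On the induced technical repeat, the array that stood apart, this probe read 2.59, more than 2 log2 units under every other induced array.

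The second Kdr probe, A_51_P316553, is the mean of 10 spots whose SD within an array was 0.030 to 0.056 log2 units. It read 2.64, 4.64 and 4.98 without and 1.67, 3.26 and 3.95 with induction, and the technical repeats read 4.91 and 4.38. Here every pair was lower by about the same amount, -0.97, -1.39 and -1.03, while the arrays of a group spread over more than 2 log2 units. The change of -1.13 (SE 0.77, 95% confidence interval -2.96 to 0.70) had an adjusted p of 0.487 in limma over all probes. With same-numbered arrays as a block the SE was 0.15, the interval -1.52 to -0.74 and the adjusted p 0.0166, and with spike-in scaling the change was 0.24. On the spike-in scale pair 2 stayed below 0 (-1.39 against a shift of 0.85), and pairs 1 and 3 did not. The spot SD was thus far below the spread between replicates, and the 2 Kdr probes gave different calls with the block. In this probe fit 1 of the 13 probes passed without the block, against 3.65% of all probes, and 5 of 13 with it, against 8.83%.

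Flt1 (A_51_P398723), the receptor that binds VEGF-A tightly, read 3.17, 4.79 and 4.83 without and 3.42, 4.80 and 5.03 with induction. The pair differences were 0.25, 0.01 and 0.20, so the groups were nearly superimposed, with replicate 1 low in both. The change was 0.15 (SE 0.59, 95% confidence interval -1.26 to 1.56) with a limma adjusted p of 0.898, and spike-in scaling made it 1.52. The replicate block narrowed the interval to -0.16 to 0.46 (adjusted p 0.410). Leaving out uninduced replicate 1, induced replicate 2 or induced replicate 3 turned the unblocked change to -0.39, -0.04 or -0.16.

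Flt4 (A_51_P179531), the VEGF-C receptor, had low signals of 34.8 to 87.4 units on the 6 replicate arrays, all of them well above background. It read -4.17, -2.94 and -1.95 without and -4.76, -4.10 and -2.66 with induction. The groups overlapped, with replicate 1 lowest and replicate 3 highest in each, and the pairs gave -0.59, -1.16 and -0.71. The change of -0.82 (SE 0.70, 95% confidence interval -2.50 to 0.86; 0.55 with spike-in scaling) had an adjusted p of 0.522 in limma. With the block the SE was 0.16 and the adjusted p 0.0279. On the spike-in scale pairs 1 and 3 turned above 0 and pair 2 did not (-1.16 against a shift of 0.85).

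The windows of Kdr and Flt1 are printed because these 2 receptors of the same ligand gave changes of different sign on the percentile scale, a difference that was not tested. With spike-in scaling both were above 0 (1.02 and 1.52) and neither passed (adjusted p 0.250 and 0.142 in limma). Leaving out 1 array turned Flt1 below 0 in 3 of the 6 fits. Kdr lies at chr5:75978406-75978705 and Flt1 at chr5:147725962-147726261, both on the minus strand, from RefSeq in GRCm38.p6 and marked as above.
Kdr: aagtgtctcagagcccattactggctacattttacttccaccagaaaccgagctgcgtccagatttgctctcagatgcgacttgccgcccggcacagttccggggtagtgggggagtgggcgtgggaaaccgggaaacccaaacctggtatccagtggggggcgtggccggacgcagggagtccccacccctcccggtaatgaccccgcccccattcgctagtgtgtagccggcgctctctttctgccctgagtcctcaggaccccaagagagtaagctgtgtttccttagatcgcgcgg
Flt1: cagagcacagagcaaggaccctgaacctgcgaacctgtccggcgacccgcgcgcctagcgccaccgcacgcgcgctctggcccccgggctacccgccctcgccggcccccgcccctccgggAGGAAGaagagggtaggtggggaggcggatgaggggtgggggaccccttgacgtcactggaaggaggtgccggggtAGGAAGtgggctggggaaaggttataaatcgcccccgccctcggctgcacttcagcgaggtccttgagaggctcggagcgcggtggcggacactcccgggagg
The Flt1 window holds 2 ETS matches, whose first bases lie 129 and 53 bases before the start, and the Kdr window holds none of the 4 motifs. Among the other members, the Nrp1 window holds 1 ETS match and 1 of the 2 Vegfa windows holds 1 GATA match, while those of Flt4 and Nrp2 hold none.

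Both neuropilins read lower on the percentile scale by less than 1 log2 unit and neither passed without or with the block. With spike-in scaling both were above 0 and neither passed (adjusted p 0.242 for Nrp1 and 0.333 for Nrp2 in limma). Nrp2 (A_52_P93910, NM_001077403) read 5.95, 5.98 and 6.09 on the uninduced arrays and 5.63, 5.35 and 5.47 on the induced ones. It had the smallest spread between uninduced replicates of the 13 probes, and its groups did not overlap. The change was -0.52 (SE 0.14, 95% confidence interval -0.87 to -0.18; 0.84 with spike-in scaling), and limma's adjusted p was 0.0955, 0.0558 with the block and 0.0429 with an intensity trend in eBayes. A second probe for another transcript, A_65_P15245 (NM_001077406), read 2.74, 3.10 and 3.17 without and 2.59, 2.00 and 2.43 with induction, a change of -0.67 (SE 0.22; 0.70 with spike-in scaling; limma adjusted p over all probes 0.186). Both probes of Nrp2 were lower in each pair on the percentile scale, and the groups of neither overlapped, with a mean change above 0 for both under spike-in scaling.

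Nrp1 (A_51_P469285) read 1.96, 1.36 and 1.37 without and 1.36, 1.13 and 1.24 with induction. The groups were separate by a hair: the lowest uninduced array was at 1.361 and the highest induced one at 1.356. The change was -0.32 (SE 0.20, 95% confidence interval -0.81 to 0.16; 1.04 with spike-in scaling), and limma's adjusted p was 0.397, or 0.182 with the block.

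**Figure D3:**
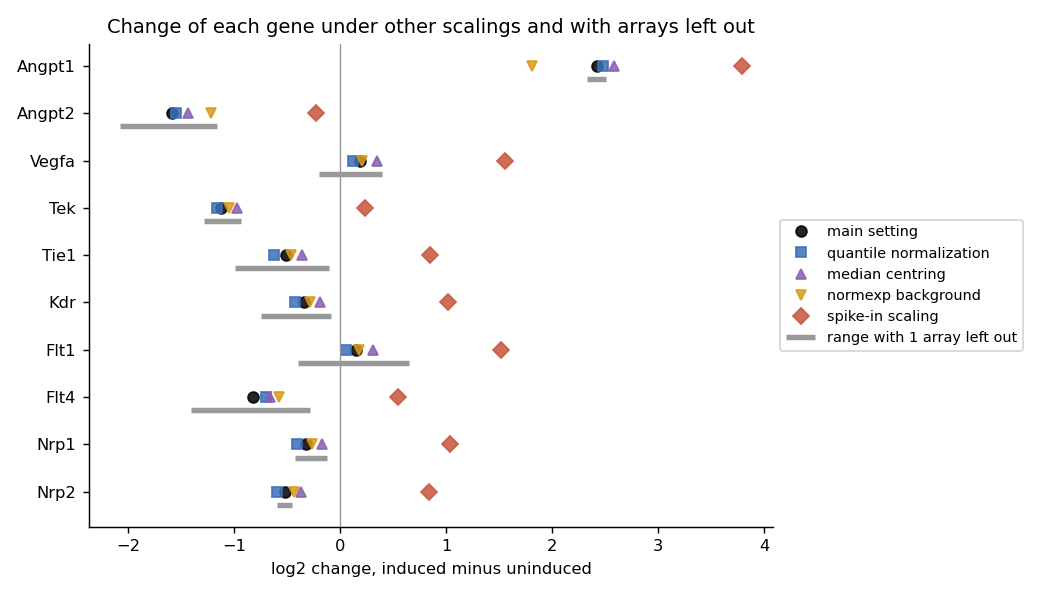
Log2 change (horizontal axis, induced minus uninduced) of the 10 genes on the 75th percentile scale (main setting) and under 4 other scalings or background corrections, with the range over the 6 fits that leave out 1 array as a grey bar. The spike-in diamonds lie to the right of 0 for every gene except Angpt2 (-0.22), and the Angpt1 symbols lie between 1.81 and 3.79.

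Several of these genes shared a pattern over replicates that the groups do not account for. Replicate 1 was the lowest of the 3 in both groups for 6 of the 10 genes, against 20.7% of all genes tested. They were Kdr, Flt1, Flt4, Tek, Tie1 and Angpt2, and at the level of probes it was 8 of 13. The summed signal of 19 endothelial marker genes, with the 75th percentile of the array as 1, moved the same way: it was 250.2, 494 and 628 on uninduced arrays 1, 2 and 3 and 86.2, 159 and 288 on the induced ones. All 19 markers were measured, and their median change was -1.36 (0.01 with spike-in scaling). Of them 0 rose and 3 fell in limma, against 4.13% and 2.16% of all genes. An unadjusted p under 0.05 was reached by 7, all lower, and over all genes by 3139 of 14515. With spike-in scaling 0 passed, 10 being above 0 and 9 below. With the replicate number as a block 1 rose and 12 fell, against 9.36% and 6.8% of all genes. With 1 array left out 1 to 4 fell. This was 1 without uninduced replicate 2, uninduced replicate 3 or induced replicate 2, 2 without induced replicate 1 or 3, and 4 without uninduced replicate 1. The 3, named after their values were seen, were Sox17, an endothelial transcription factor (-3.54, SE 0.58, adjusted p 0.0182; -2.18 with spike-in scaling), Ecscr, an endothelial surface protein (-1.36, adjusted p 0.00920; 0.01 with spike-in scaling), and Eng, a co-receptor of the transforming growth factor family (-0.92, adjusted p 0.0234; 0.45 with spike-in scaling). With 1 array left out in turn Ecscr kept its call in 6 of 6 fits, Sox17 in 3 and Eng in 1 (adjusted p 0.0468 to 0.112). The part of this endothelial signal in the levels of the receptors was not tested.

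Markers of the other cell types that such a culture could hold are given beside Angpt1, whose product is known from several of them. Over all genes 4.13% rose and 2.16% fell without the replicate block, and 9.36% and 6.8% with it. With spike-in scaling 681 of all 14515 genes rose and 3 fell. Of 12 early blood genes 7 rose and 0 fell (8 and 0 with spike-in scaling, with 0 under 0, and 8 and 0 with the replicate block), and their summed signal went from 5.82 to 7.94 on the uninduced to 64.1 to 67.3 on the induced arrays. The gene of the pan-leukocyte antigen, Ptprc, was low in both groups, at -4.59 and -4.78. Megakaryocyte and mast cell genes rose in 3 of 6 measured and 0 fell, 4 and 0 with the block (sum 2.26 to 4.46 without and 11.9 to 17.1 with induction). Of the genes that rose in these lists, Myb, Ikzf1, Mcpt4 and Mcpt8 were well above background on all 3 replicates of the induced group only. They entered the test through that group, so a fall could hardly be seen for them. The same holds for Spi1 and, in the macrophage list, Lyz2, which passed with the block and with spike-in scaling. Macrophage and granulocyte genes rose in 2 and fell in 1 of 7, Csf1r, named after its value was seen, with 4 and 0 under spike-in scaling and 4 and 1 with the block (sum 50.6 to 58.9 and 37.1 to 54.4). That sum rests mostly on the brightest probe, Itgam (-0.35), which did not pass. The median change of the list was 1.83, with 4 genes higher and 2 lower in all 3 pairs. With 1 array left out 1 to 2 of them rose and 0 to 1 fell, and Csf1r kept its call in 1 of 6 fits, that without induced replicate 2 (adjusted p 0.0248 to 0.0845). In the smooth muscle and mesenchyme list 0 of 7 passed in limma, with 2 at an unadjusted p under 0.05, 1 in each direction, and the sum was 785 to 886 and 557 to 678. With the block 1 of the 7 was higher and 2 were lower. Red cell genes passed in 0 of 6, with 0 at an unadjusted p under 0.05, in the fit without a block. Their sum was lower on the induced array of each pair, from 13.5 to 8.02, from 169 to 39.3 and from 63.4 to 26.0, and 5 of the 6 genes were lower in all 3 pairs. With the block 3 of them were lower, Hbb-bh1 (-1.64), Hba-x (-1.53) and Hbb-y (-1.47), embryonic globins named after their values were seen, which were at -0.27, -0.16 and -0.10 with spike-in scaling. Cardiac and pluripotency genes passed in 0 of 4 and 0 of 2 in limma, with 0 and 2 at an unadjusted p under 0.05. The cardiac sum was lower in each pair (54.0 to 21.9, 21.7 to 8.60 and 11.2 to 4.57). With the block 2 cardiac genes were lower, Tnnt2 (-1.52; -0.16 with spike-in scaling) and Actc1 (-0.63; 0.74), likewise named after their values were seen. On the percentile scale Angpt1 thus moved in the direction of the early blood and the megakaryocyte and mast cell genes. The macrophage and granulocyte list went that way by its median change (1.83) and the other way by its sum. Angpt1 moved against the endothelial, smooth muscle, red cell and cardiac sums on that scale. A sum weighs its brightest probes most. These were Egfl7 for endothelial, Acta2 and Tagln for smooth muscle, Tnnt2 for cardiac and, on the induced arrays, Itgb3 for early blood. Egfl7 changed by -1.80 (-0.43 with spike-in scaling) and passed with the block but not without it. With spike-in scaling the median change of the endothelial list was 0.01 and that of the smooth muscle list 1.03. That of the red cell list was then -0.07, that of the cardiac list 0.99 and that of the macrophage list 3.19. The part of any of these cell types in the level of Angpt1 was not tested.

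**Figure D4:**
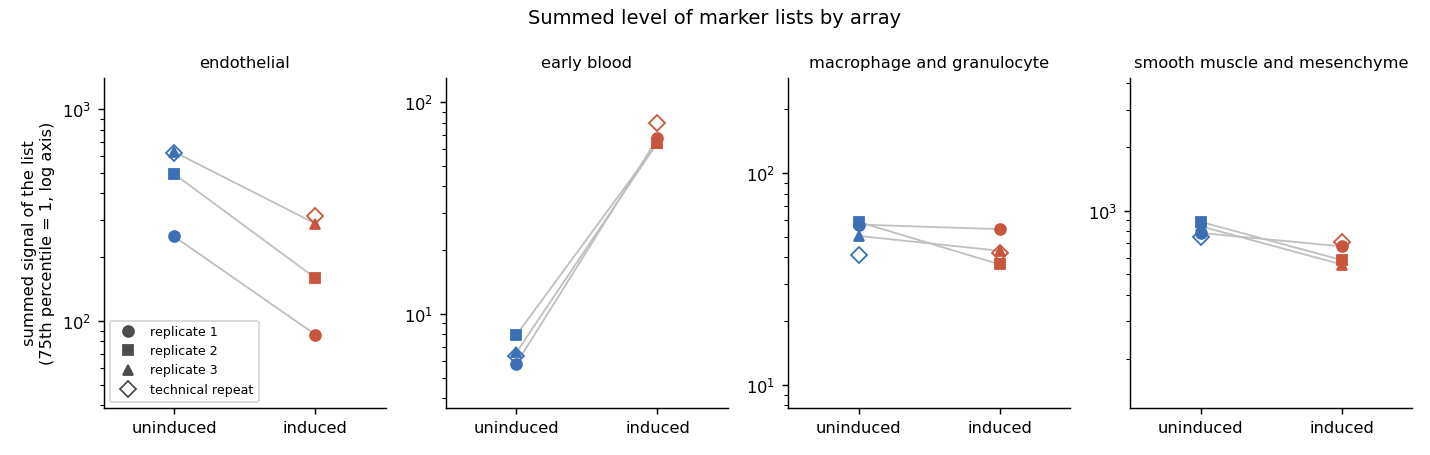
Summed signal of 4 marker lists by array (vertical axis, log scale, 75th percentile of the array as 1). Points are replicates, joined by number, and open diamonds are technical repeats. The endothelial sum was lower on the induced array of each pair and lowest on replicate 1 in both groups, and the early blood sum was 64.1 to 67.3 on induced against 5.82 to 7.94 on uninduced arrays. On the spike-in scale the sums of the 3 induced replicates lie higher relative to the uninduced ones, and the median change of the endothelial list is 0.01.

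The rest of the pathway was a list of 79 other ligands, partners, signalling proteins and targets, of which 74 were measured. In limma 5 rose, 2 fell and 67 did not pass, with a median change of -0.03. Over all genes 4.13% rose and 2.16% fell, with a median change of 0.09. Under the replicate block 11 rose and 9 fell, against 9.36% and 6.8% of all genes. With spike-in scaling 9 rose and 0 fell, at a median of 1.29, against 681 and 3 of all 14515 genes, at a median of 1.45. Whether the share of the list differs from that of all genes was not tested. By list, the block took the 4 other ligands from 1 rise and 0 falls to 1 and 1, the 6 receptor partners and processing genes from 1 and 0 to 2 and 0, and the 7 feedback genes and inhibitors from 0 and 0 in limma (1 at an unadjusted p under 0.05, higher) to 1 and 1. The partner gene added by the block was Adamts3, named after its values were seen. It was well above background on 3 induced and 2 uninduced replicates, and so entered the test through the induced group. Among the other ligands, Pgf, the placental growth factor that binds the Flt1 product, read -1.96, -1.86 and -1.10 without and -0.55, -0.29 and -0.15 with induction. The groups did not overlap, and the change was 1.31 (SE 0.26, adjusted p 0.0351 in limma). The technical repeats went the other way, from -1.18 to -2.41, on the array pair whose induced member stood apart. Pgf kept the call with 1 array left out only without uninduced replicate 3, with adjusted p values of 0.0160 to 0.141, and lost it without the filter on dim probes (0.0745) and with normexp (0.0521). Vegfc, the ligand of the Flt4 product, read lower without passing in the fit without a block. Its change was -0.79 (SE 0.20, adjusted p 0.0806 in limma, 0.0155 with the block; 0.58 with spike-in scaling). Vegfc passed in 3 of the alternatives, the block among them, and in none that left out 1 array. Vegfb changed by 0.23 (adjusted p 0.624). Gpc1, a heparan sulfate proteoglycan that binds growth factors, rose by 1.70 (SE 0.27, adjusted p 0.0156), and lost the call without induced replicate 1 or induced replicate 3. Ptprb, the phosphatase that acts on Tie2, read -0.69 (SE 0.22; 0.68 with spike-in scaling; limma adjusted p 0.141).

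Downstream of the receptors, 2 of 36 VEGF signalling genes rose and 1 fell, against 4.13% and 2.16% of all genes. With the replicate block 4 rose and 3 fell, against 9.36% and 6.8%. Those that rose without the block were Prkca (0.82, SE 0.15, adjusted p 0.0255) and Prkcb, both protein kinases C. The call of Prkca was lost without uninduced replicate 2 or 3, without induced replicate 2 or 3, without the filter on dim probes (adjusted p 0.0652) and with spike-in scaling (2.19, adjusted p 0.0992). No uninduced array read Prkcb well above background. It entered the test through the induced group, so a fall could hardly be seen for it, and it counts among the rises here and in the whole list. On the percentile scale its rise was at least 4.81-fold relative to the floor of detected signals (adjusted p 0.00730 in limma). With normexp background its change was 0.47 and did not pass, so the 4.81 is no bound there. Shb, an adaptor that binds the Kdr product, fell by 0.92 (SE 0.17, adjusted p 0.0290) and lost the call with any 1 of the 6 arrays left out. With spike-in scaling it was at 0.44 and did not pass (adjusted p 0.606 in limma). Of 9 Tie2 signalling genes 1 rose and 0 fell, or 2 and 0 with the block. The 1 without it was Dok2, an adaptor that docks on Tie2 and is known from blood cells. It read -0.09, 0.08 and 0.17 without and 4.00, 4.78 and 4.53 with induction. Its change of 4.38 (SE 0.23, adjusted p 0.000759 in limma) was the largest of the 74. Thus the receptor Tek and its docking protein Dok2 gave changes of different sign on the percentile scale, -1.13 and 4.38. With spike-in scaling both were above 0, at 0.24 for Tek, which did not pass (adjusted p 0.784 in limma), and 5.74 for Dok2, which did.

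None of 8 measured VEGF-induced genes passed in limma, with 4 at an unadjusted p under 0.05, 1 higher and 3 lower, and their median change was -0.86 (0.50 with spike-in scaling). With the replicate number as a block 3 were lower, against 6.8% of all genes. They were Apln (-1.88) and Aplnr (-1.85), the ligand and receptor of the apelin system, and Pdgfb (-1.16), a growth factor by which endothelium recruits mural cells. With spike-in scaling these were at -0.52, -0.49 and 0.20. Nr4a2, a nuclear receptor, was higher with the block (1.11), as were 9.36% of all genes. With spike-in scaling it also passed (2.48, adjusted p 0.0477 in limma), where 681 of all 14515 genes rose. Apln, Aplnr, Pdgfb and Nr4a2 were named after their values were seen. Of 4 regulators of Vegfa 1 fell, against 2.16% of all genes. It was Epas1, the hypoxia-inducible factor known from endothelium, which read 5.31, 5.51 and 5.48 without and 2.97, 3.56 and 4.09 with induction. The change was -1.89 (SE 0.28, adjusted p 0.0137 in limma), and with spike-in scaling it was -0.53 (adjusted p 0.539). The call was lost without uninduced replicate 2 (adjusted p 0.0642) or induced replicate 2 (0.0554).

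**Figure D5:**
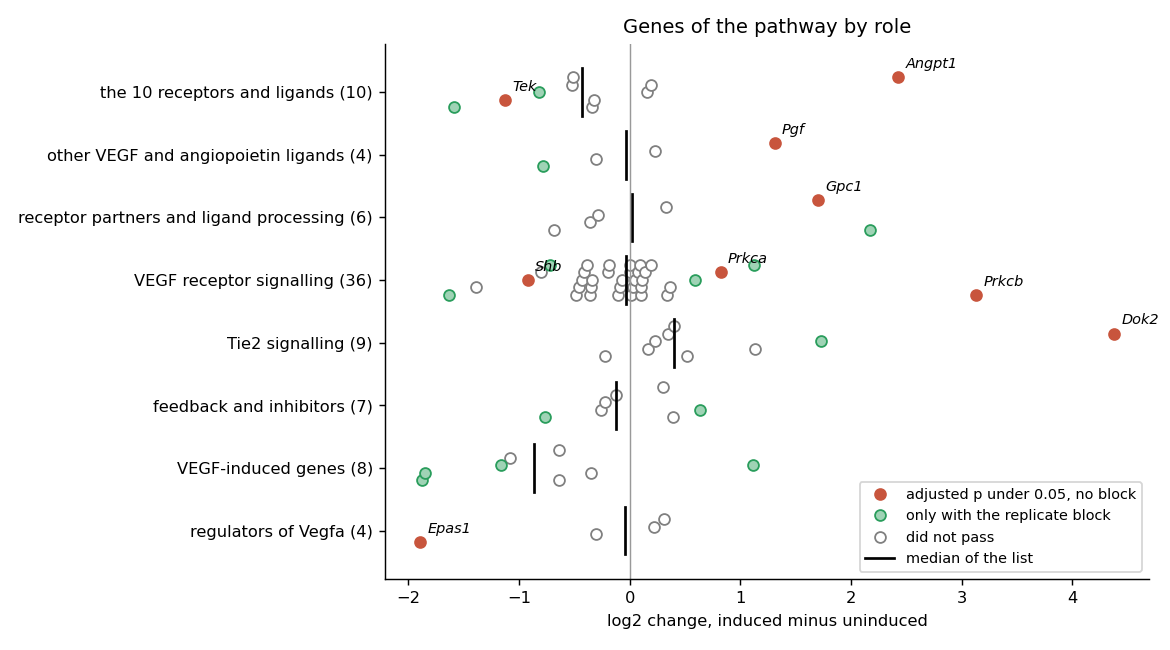
Log2 change (horizontal axis, induced minus uninduced, 75th percentile scale) of the 10 genes and of 74 other genes of the pathway by role, with the number measured in brackets and the median of each list as a black line. Red points passed in limma without a block, green ones only with the replicate number as a block. The VEGF-induced genes have a median of -0.86 (0.50 with spike-in scaling) and the Tie2 signalling genes one of 0.40. With spike-in scaling each point would lie farther right, by 1.37 except for Map2k1 (0.11 to 1.03), which lacks a value on 1 array. This puts Tek and Shb above 0, where neither passed (adjusted p 0.784 and 0.606 in limma).

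The genes whose pattern over the 6 arrays was most like that of Tek, by root mean square difference after each gene was centred on its mean over 14494 genes with a value on every array, were Nrk (0.0568), Slc37a3 (0.125), Tnni3k (0.128), Scgb3a1 (0.130) and Arhgap29 (0.140). For the single-spot Kdr probe, the 5 nearest included Krtap19-5 (0.0567), Gnaz (0.0762), Il12rb2 (0.0773) and Efna3 (0.0781). The 10 genes themselves were left out of the ranking. No gene of the endothelial list was among either 5, which shows little, since that list holds 19 of the 14494 genes. The measure also counts the size of the deviations and not only their shape. Whether Tek or Kdr followed the endothelial markers over the arrays was not tested. The 6 arrays share 1 scale and 1 slide.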

How the data were processed

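RNA (25 ng) was measured with Cy3 on 8 Agilent 1-colour arrays, which share 1 slide and 1 scan per the file headers. Per the file headers, the deposited scanner files hold the processed, median and background signal of each spot as linear intensity, with flags of 0 and 1, from Feature Extraction 10.7.3.1. Version 10.7.1.1 and limma appear in the submitters' processing notes. A table of log2 spot values was deposited too, and how the authors normalized it is not stated. Its column medians were 5.37, 5.37, 5.38, 5.38, 5.38, 5.36, 5.38 and 5.36. Over 19751 spots it rose with the scanners' log2 signal and its centring is unknown, and only 2 of 8 columns followed the array they name. It served as an alternative in both readings.

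Outlier spots (114 to 246 of 59305 non-control spots per array) were dropped, each array's 75th percentile was subtracted from its log2 processed signal, and a probe's spots were averaged. Accessions gave 1 symbol to 26576 probes and none to 29105, through the GRCm38.p6 RefSeq table. Kept were the 32857 probes that in at least 1 group were well above background on all 3 replicates. The brightest of a gene's kept probes represents it (14515 genes). The comparison used limma 3.58.1 in R 4.3.3 (lmFit, eBayes), was two-sided, and was adjusted by Benjamini-Hochberg over all genes, or over all kept probes where named. An adjusted p with no fit named is from the gene fit without a block. The code was tested on simulated data. A fold given as "at least" is the brighter group's mean over a floor, the mean over the dim arrays of the higher of the probe's reading and the faintest reading called well above background. The labels do not say that a replicate number marks a shared culture. Arrays of the same number deviated together (correlations of deviations from group means 0.646, 0.451 and 0.431 over 14494 genes). Those of replicates 1 and 2 also lay in adjacent columns of slide row 1. The block thus rests on these same data, and values with it are given where they change a call of the 10 genes or a list's count. The number of arrays limits the precision. Spike-in scaling used the 4 brightest E1A probes under a mean log2 signal of 17, above which readings level off. Normexp used the median signal, since the mean signal is not among the columns used here.

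The 10 genes, the 79 pathway genes and the marker lists were chosen with earlier results of these data known. Named are the 10, the pathway genes past the threshold (at most the 6 largest rises and 6 largest falls), Ptprb, Pgf, Vegfb and Vegfc, and the 5 genes most like Kdr and Tek, of which 1 is not reported here. Alternatives were the block, normexp (offset 50), median centring, quantile normalization, spike-in scaling, other filters, the mean of the kept probes, an intensity trend, the deposited table, 1 array left out and, added after seeing the data, slide row as a block.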

Additional observations from a re-analysis of the deposited data

How the results depend on the processing

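Angpt1 kept its direction and its call under every alternative on the scanner files and with each array left out. The number of the 10 genes called was 2, and it was 1 under median centring, without the filter and with spike-in scaling, 4 with the replicate number as a block, 3 with the intensity trend (Nrp2 added) and with slide row as a block (Angpt2 added), and 1 with any array left out (1 to 1). The block changed no call of the 10 genes other than those of Angpt2 and Flt4. Of all genes 913 passed, with 533 without the filter, 2346 with the block and 361 to 818 with 1 array left out. Those that rose were 65.6% of the 913, 76.9% under median centring and 99.6% with spike-in scaling (681 rose, 3 fell). For the 7 pathway genes called the count was 4 without the filter, 20 with the block, 11 in the deposited table read by the array each column tracks, and 3 to 6 with 1 array left out. For the 1 member probe called it was 2 with the intensity trend, normexp, slide row as a block and the table read by tracked array, 5 with the block, and 1 to 1 with 1 array left out.

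In the deposited table with columns as named, which mixes the groups, 0 of the 10 genes, 0 of 13 probes, 0 pathway genes and 0 of all genes passed in limma (223 at an unadjusted p under 0.05). There the sign turned for Kdr (0.29; its 10-spot probe 1.21), Flt4 (0.61), Tek (0.24), Tie1 (0.57), Angpt1 (-0.039), Angpt2 (0.45), Vegfa (-0.17; its other probe 0.23), Ptprb (0.23), Gpc1 (-0.31) and Epas1 (0.48). With spike-in scaling, which by its construction adds 1.37 to each change of a gene read on all 6 arrays, it turned for Kdr (1.02; 10-spot probe 0.24), Flt4 (0.55), Nrp1 (1.04), Nrp2 (0.84; second probe 0.70), Tek (0.24), Tie1 (0.85), the second Vegfa probe (0.92), Vegfc (0.58), Ptprb (0.68) and Shb (0.44). None of these passed on that scale. With 1 array left out the sign turned for Flt1 (-0.39 to 0.65) and Vegfa (-0.19 to 0.40), and with the mean of the kept probes for Vegfa (-0.13). The cause of these last turns of Flt1 and Vegfa was not tested.

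A slide block or a comparison within slides was not run, since all arrays lie on 1 slide. With 3 arrays per group, intervals of the members without the block were up to 3.66 log2 units wide.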
